A study of Mus musculus with 9 samples.

Results

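Collagen chain genes were taken as every gene symbol of the deposited count tables made of Col, a type number, the letter a and a chain number, which gave 44 of 23420 symbols. Collagens are the main structural proteins of the extracellular matrix, built of chains that wind around each other into a helix. Fibrillar types form the ropes that carry tension in skin, tendon and bone, network types form the sheets of basement membranes, type VI forms beaded filaments around cells, and fibril-associated types (FACIT) decorate the ropes. In connective tissue these chains are made mainly by fibroblasts, chondrocytes and osteoblasts, while the thymus holds a stromal mesenchyme that forms its capsule, septa and vessel sheaths.

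RNA was sequenced from mesenchymal cells of thymus, bone and skin of C57BL/6 mice aged 3 to 4 weeks, with 3 libraries per tissue. The labels define the cells as negative for a cocktail of lineage antibodies and positive for the surface protein SCA1, and give no genotype, treatment or sex. The cocktail covers leukocyte, erythroid and platelet markers, EpCAM and CD31. Bone cells came from femurs, tibias and pelvis. The thymus libraries are labelled 2, 3 and 1-3, and the last label is not explained, so that library may be a pool that shares material with the other thymus libraries. Since the labels do not say that libraries came from separate animals, the p-values below measure the spread between these samples only.

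Reads on genes ranged from 78757872 to 116759235 per library, and each library had at least 1 read for 41 to 44 of the 44 collagen genes. All 44 passed the filter on low counts, as did 15635 genes in all. All 8 of the mesenchymal markers examined, Pdgfra and Ly6a (which encodes SCA1) among them, were at 1 CPM or more on average in every tissue. CPM are read counts scaled to a common library size, adjusted between libraries by the TMM method. The TMM factors were 0.701 to 0.770 in skin and 1.10 to 1.23 in the other tissues. Values are given in the order 2, 3 and 1-3 for thymus and 1, 2 and 3 for bone and skin. Differences between tissues are log2 differences of CPM ± SE from edgeR's quasi-likelihood test, with Benjamini-Hochberg adjusted p over all 15635 genes and a threshold of 0.05. In bulk RNA, fewer cells of a type and less RNA per cell cannot be told apart.

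Skin libraries had the largest share of their gene reads on collagen. Collagen chains held 28.4 ± 1.26% (SD, n = 3) of gene reads for skin, 10.3 ± 0.0813% for thymus and 9.71 ± 0.568% for bone. The share was 29.0, 29.3 and 27.0% in the skin libraries, 10.4, 10.3 and 10.2% in thymus, and 9.42, 10.4 and 9.35% in bone. Skin lay apart from both other tissues, while the ranges of thymus and bone overlapped. The tissues differed by an exact permutation test of the 9 libraries over the 3 tissues (p = 0.0107, one-sided for a large F, smallest possible p 0.00357), which does not say which pair differs. A share of reads counts long transcripts more. Per length, as a share of summed RPKM, collagen held 15.3 ± 1.13% for skin, 5.28 ± 0.0754% for thymus and 5.08 ± 0.345% for bone (p = 0.0143 by the same exact test). Col1a1, Col1a2 and Col3a1 made up 86.0 ± 1.11% of the collagen reads for skin, 68.4 ± 0.519% for bone and 43.1 ± 3.44% for thymus. The order was different for the other 41 genes, which held 5.88 ± 0.348% of gene reads for thymus, 3.99 ± 0.483% for skin and 3.07 ± 0.229% for bone.

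The make-up by structural class was compared per length, as the share of the summed RPKM (reads per length and library depth, made by the authors) of the 44 chains. Fibrillar chains held 91.8 ± 0.741% of this total in skin, 77.8 ± 0.52% in bone and 48.2 ± 3.66% in thymus. Type VI chains held 35.9 ± 3.00% in thymus, against 13.2 ± 0.208% in bone and 6.47 ± 0.651% in skin. The multiplexins Col15a1 and Col18a1, chains with many interruptions of the helix that sit at basement membranes, held 7.92 ± 0.963, 1.04 ± 0.124 and 0.232 ± 0.0281% in thymus, bone and skin. Type IV chains, the sheet of basement membranes, followed the same order with 6.37 ± 0.659, 3.06 ± 0.268 and 0.495 ± 0.120%. Bone had the highest share of the short-chain network collagens, 1.94 ± 0.642% against 0.0863 ± 0.026% in thymus and 0.00829 ± 0.00137% in skin. FACIT chains held 2.92 ± 0.113% in bone, 1.28 ± 0.248% in thymus and 1.04 ± 0.15% in skin. Each of the 9 classes differed over the 3 tissues by the exact permutation test, with p adjusted over the classes at 0.00459 for 7 of them, 0.00804 for FACIT and 0.0107 for the transmembrane chains. Shares of a total are tied to each other, so that a class falls where another rises.

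**Figure D1:**
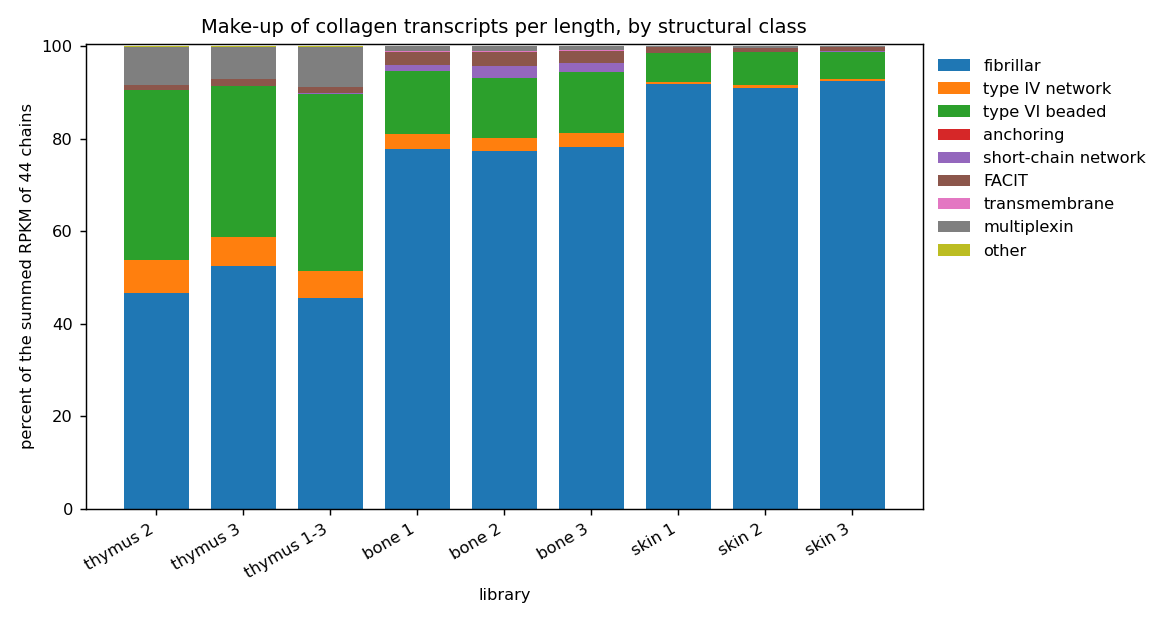
Stacked bars give the percent of the summed RPKM of the 44 collagen chains held by each structural class (y axis) in each of the 9 libraries (x axis). Fibrillar chains fill 91.0 to 92.4% of the bar in skin and 45.6 to 52.4% in thymus, where type VI fills 32.6 to 38.4%.

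Per length, Col3a1 was the highest collagen in all 3 tissues, at a mean RPKM of 4002 for thymus, 4769 for bone and 18029 for skin. The next places differed. In thymus Col6a2 (2872 RPKM) and Col6a1 (2211 RPKM) came next, ahead of Col1a2 (1567 RPKM) and Col1a1 (1447 RPKM), and Col15a1 (1231 RPKM) followed. In bone and in skin Col1a1 and Col1a2 followed Col3a1, and Col6a2 and Col6a1 came after them. At a mean of 10 CPM or more were 26 collagen genes for thymus, 31 for bone and 25 for skin. The mean exceeded 1000 CPM for 14 genes in thymus, 10 in bone and 11 in skin.

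**Figure D2:**
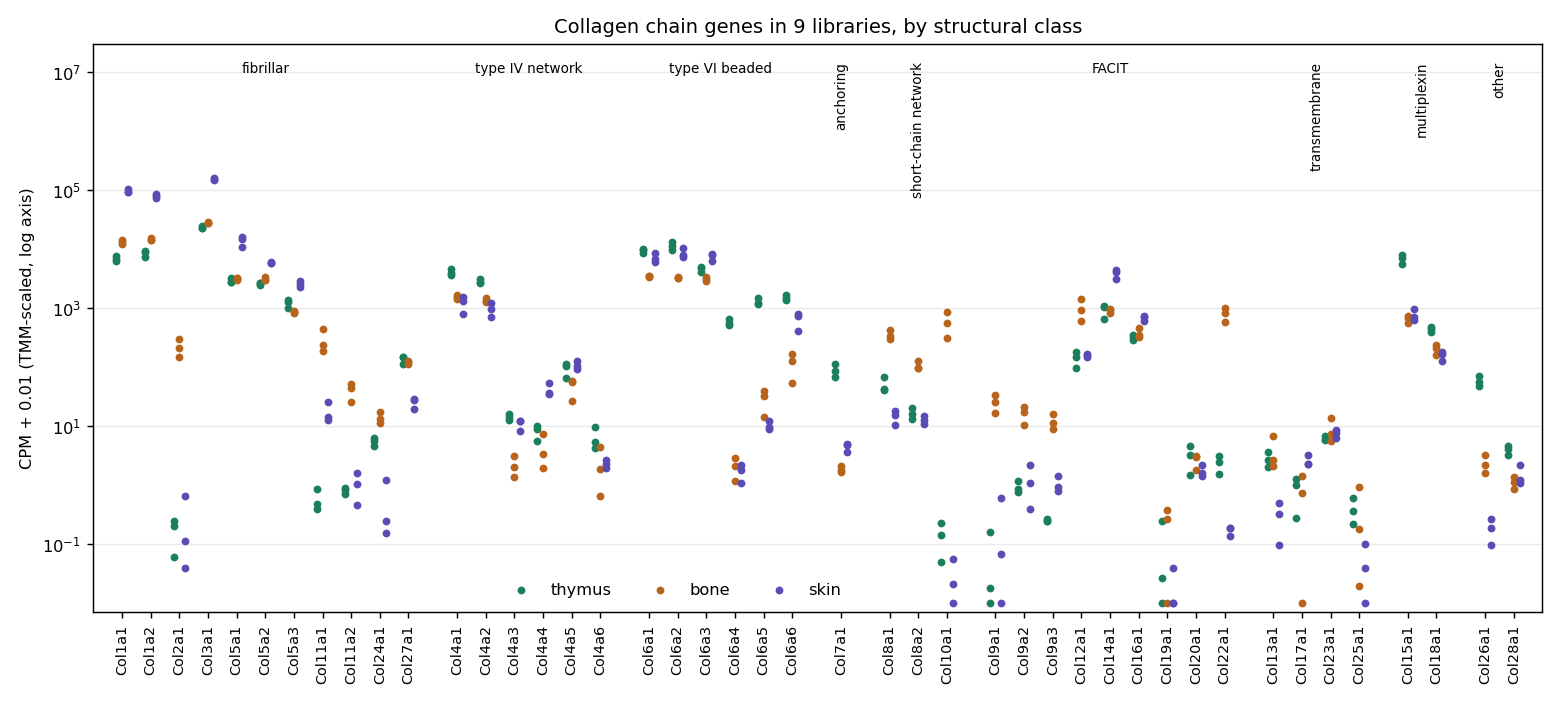
Each point is 1 library, with CPM + 0.01 on a log axis (y) for the 44 collagen chain genes grouped by structural class (x), in thymus, bone and skin. Col6a4, Col7a1 and Col26a1 stand highest in thymus, Col2a1, Col10a1 and Col22a1 in bone, and Col1a1, Col1a2 and Col3a1 in skin.

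The share of collagen genes that differed between tissues was above that of all genes in each direction with TMM scaling, which is a description without a test. In thymus 16 of 44 were higher than in bone (36.4%, against 16.5% of all genes tested) and 13 were lower (29.5%, against 16.1%). Against skin, 15 were higher in thymus (34.1%, all genes 19.3%) and 12 lower (27.3%, all genes 18.3%). Bone exceeded skin for 17 (38.6%, all genes 23.7%) and fell below it for 16 (36.4%, all genes 23.4%). The median log2 difference of the 44 genes was 0.03 for thymus against bone, 0.39 for thymus against skin and 0.30 for bone against skin, where all genes had medians of 0.02, 0.03 and 0.03. These comparisons share libraries and are not independent. The split against skin depended on the scaling. With library size in place of TMM factors, which moved the median of all genes to 0.66 for thymus against skin and 0.72 for bone against skin, thymus exceeded skin for 22 collagen genes (50%, all genes 46.2%) and fell below it for 11 (25%, all genes 7.92%). Bone then exceeded skin for 22 (50%, all genes 47.8%) and fell below it for 13 (29.5%, all genes 8.91%). The shares of collagen genes above skin were thus near those of all genes under this scaling.

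A gene was taken as apart in a tissue when it differed from both other tissues in the same direction, each time by at least 2-fold. By this rule 10 collagen genes were highest in thymus (22.7%, all genes 4.05%), 11 in bone (25.0%, all genes 6.51%) and 7 in skin (15.9%, all genes 5%). Lowest were 2 in thymus (4.55%, all genes 3.83%), 6 in bone (13.6%, all genes 3.86%) and 7 in skin (15.9%, all genes 7.55%). The count for thymus lower was thus near the background. With library size as the scaling, 2 genes were lowest in bone (4.55%, all genes 2.19%) and 12 in skin (27.3%, all genes 18.7%).

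**Figure D3:**
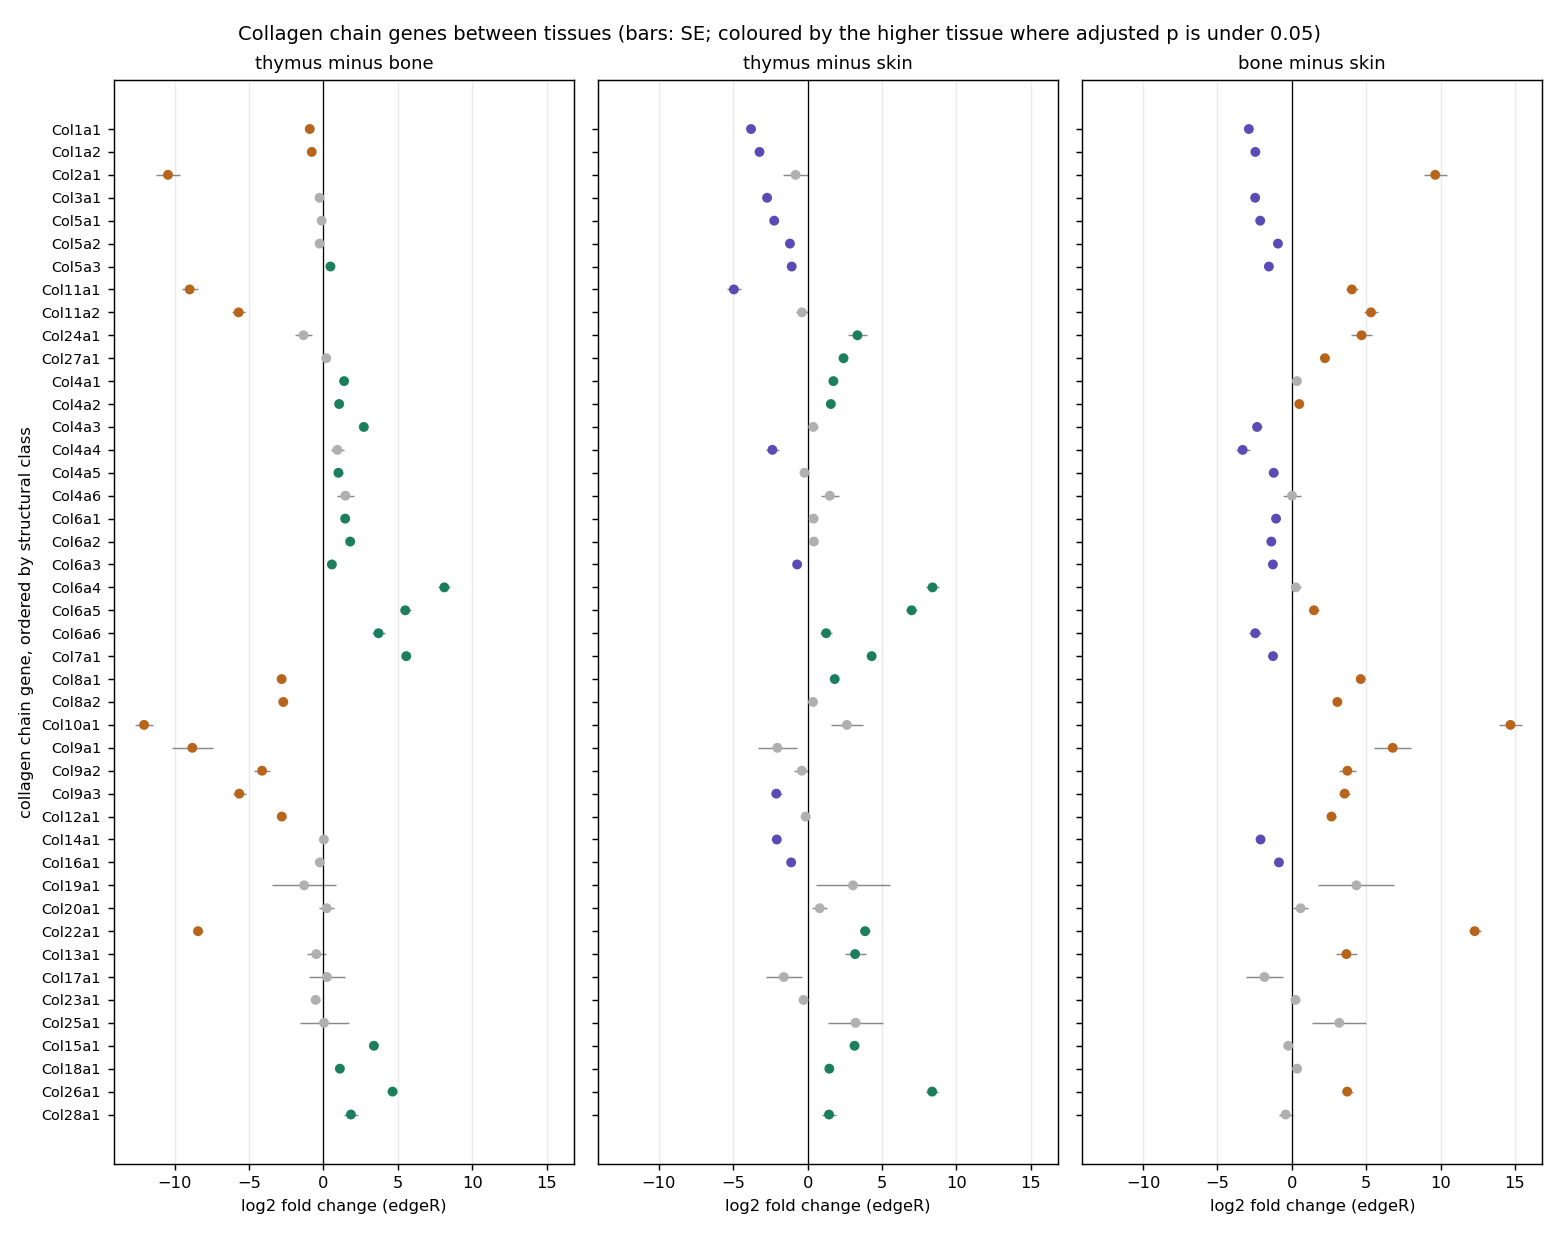
Points are edgeR log2 fold changes with SE (x) of the 44 collagen chain genes ordered by class (y) for thymus minus bone, thymus minus skin and bone minus skin. Coloured points passed an adjusted p of 0.05, which 29 (65.9%, all genes 32.6%), 27 (61.4%, all genes 37.6%) and 33 (75%, all genes 47.1%) did, and grey points did not.

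Of the 11 fibrillar genes, skin exceeded thymus for 7 and bone for 6 (all genes 18.3% and 23.4%). Skin fell below thymus for 2 and below bone for 5 (all genes 19.3% and 23.7%). Bone exceeded thymus for 5 and thymus exceeded bone for 1 (all genes 16.1% and 16.5%). Col1a1 and Col1a2 encode the chains of type I collagen, the bulk of skin, tendon and bone matrix. Col1a1 (chromosome 11, 94936270 to 94951856 in mm10) had 6383, 6756 and 7749 CPM in thymus, 12232, 14206 and 13028 CPM in bone and 93917, 106273 and 91515 CPM in skin. The 3 tissues did not overlap, with skin highest and thymus lowest. The excess of skin was 3.80 ± 0.17, adjusted p = 4.67e-08 over thymus and 2.89 ± 0.17 over bone, and bone exceeded thymus by 0.92 ± 0.16, adjusted p = 0.000813. Its partner Col1a2 had 8845, 9314 and 7474 CPM in thymus, 14437, 15461 and 14273 CPM in bone and 80589, 87011 and 73515 CPM in skin. It stood in the same order, again with no overlap, and bone exceeded thymus by 0.79 ± 0.15, adjusted p = 0.00226. Col3a1, whose type III homotrimer mixes with type I in stretchable tissue, had 22448, 25152 and 22517 CPM in thymus, 29232, 27372 and 27443 CPM in bone and 148251, 162589 and 152059 CPM in skin. Skin exceeded both other tissues for this gene (by 2.72 ± 0.15 over thymus and 2.46 ± 0.15 over bone), while thymus and bone did not overlap yet did not differ past the threshold (adjusted p = 0.194).

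The promoters of Col1a2 and Col3a1 are printed from the RefSeq table used here, GRCm38.p6, the assembly of mm10. Among chains with a window in that table they were the highest per length in bone and in skin, though not in thymus. Col1a1 had no window there. The Col1a2 window (chr6:4505368-4505667, plus strand) holds 2 CCAAT and 2 GGGCGG boxes, and that of Col3a1 (chr1:45311288-45311587, plus strand) holds 1 TATAAA box, in capitals and on either strand. Each window runs from 250 bases before to 50 bases after the RefSeq start, printed 5′ to 3′ on the gene's strand.
Col1a2: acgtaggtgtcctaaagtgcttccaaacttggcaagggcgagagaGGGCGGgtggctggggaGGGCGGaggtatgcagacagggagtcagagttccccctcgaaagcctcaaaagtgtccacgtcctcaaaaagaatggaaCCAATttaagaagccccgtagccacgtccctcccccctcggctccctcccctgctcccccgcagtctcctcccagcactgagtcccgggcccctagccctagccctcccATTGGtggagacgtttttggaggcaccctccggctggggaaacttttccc
Col3a1: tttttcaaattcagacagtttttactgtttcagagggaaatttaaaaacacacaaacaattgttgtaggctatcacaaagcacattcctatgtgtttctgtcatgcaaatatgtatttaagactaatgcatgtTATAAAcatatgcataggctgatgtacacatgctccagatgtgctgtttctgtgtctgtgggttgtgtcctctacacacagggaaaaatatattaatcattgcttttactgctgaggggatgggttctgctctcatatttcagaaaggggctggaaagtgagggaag

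Type V chains, which start and thin type I fibrils, followed type I in part. Col5a1 had 2732, 2764 and 3253 CPM in thymus, 3048, 3279 and 3194 CPM in bone and 14836, 15832 and 10792 CPM in skin. Skin lay above both other tissues, by 2.25 ± 0.18, adjusted p = 2.23e-06 over thymus and 2.12 ± 0.18 over bone, while thymus and bone overlapped. Col5a2 had 2646, 2694 and 2488 CPM in thymus, 2988, 3031 and 3339 CPM in bone and 5938, 6057 and 5846 CPM in skin. Skin was again highest, by 1.19 ± 0.14 over thymus and 0.93 ± 0.14, adjusted p = 0.00016 over bone, and the latter call was lost with library size as the scaling (adjusted p = 0.126). Col5a3, the least abundant type V chain per length in all 3 tissues, had 1255, 1011 and 1380.4 CPM in thymus, 877, 844 and 910.0 CPM in bone and 2520.3, 2845 and 2284 CPM in skin. Skin exceeded thymus by 1.07 ± 0.16 and bone by 1.54 ± 0.16. Thymus exceeded bone by 0.47 ± 0.16, adjusted p = 0.0378, a call lost without bone 1, bone 2, bone 3, thymus 2 or thymus 1-3 (adjusted p = 0.0793 to 0.123). It was also lost with upper quartile scaling factors and in the fit with a replicate block (largest adjusted p over the alternatives 0.217).

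The fibrillar chains of cartilage had another pattern. Col2a1, the main collagen of cartilage, had 0.0503, 0.192 and 0.235 CPM in thymus, 209, 304 and 148 CPM in bone and 0.652, 0.0293 and 0.104 CPM in skin. Bone alone stood above 1 CPM, and it exceeded thymus by 10.45 ± 0.81, adjusted p = 1.06e-05 and skin by 9.64 ± 0.78, adjusted p = 9.27e-06. Without skin 1, the skin library with most reads of this gene, the excess over skin came to 11.59. Col11a1, which nucleates type II fibrils, had 0.386, 0.469 and 0.853 CPM in thymus, 187, 436 and 238 CPM in bone and 12.9, 14.2 and 25.5 CPM in skin. All 3 tissues were separate for it, since skin exceeded thymus by 4.96 ± 0.47, adjusted p = 2.81e-05 and bone exceeded skin by 4.03 ± 0.42, adjusted p = 4.55e-05. Its partner Col11a2 had 0.805, 0.686 and 0.872 CPM in thymus, 45.2, 52.2 and 25.6 CPM in bone and 1.6, 1.03 and 0.45 CPM in skin. Bone was again highest (by 5.70 ± 0.46 over thymus and 5.32 ± 0.45 over skin), and thymus and skin overlapped.

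Col24a1 and Col27a1 encode minor fibrillar chains, known from developing bone and cartilage. Col24a1 had 4.68, 5.61 and 6.2 CPM in thymus, 17.5, 11.2 and 13.1 CPM in bone and 0.236, 0.147 and 1.22 CPM in skin. Skin was lowest, with thymus 3.35 ± 0.65, adjusted p = 0.00217 and bone 4.68 ± 0.68 above it. Skin 3 held most of the skin reads, and without it these differences came to 4.82 and 6.16. Col27a1 had 146, 114 and 151 CPM in thymus, 112, 128 and 121 CPM in bone and 28, 29.4 and 19.8 CPM in skin. Thymus and bone overlapped and lay above skin, by 2.41 ± 0.17, adjusted p = 1.05e-06 and 2.22 ± 0.17.

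Type IV chains form the sheet of basement membranes, in which chains 1 and 2 are found almost everywhere and chains 3 to 6 in chosen tissues. Among the 6 genes, thymus exceeded bone for 4 (all genes 16.5%). Thymus exceeded skin for 2 and fell below it for 1 (all genes 19.3% and 18.3%). Bone exceeded skin for 1 and fell below it for 3 (all genes 23.7% and 23.4%). Col4a1 had 4565, 3899 and 3686 CPM in thymus, 1699, 1519 and 1424 CPM in bone and 791, 1527 and 1342 CPM in skin. Thymus lay above both other tissues, by 1.39 ± 0.22, adjusted p = 0.000522 over bone and 1.73 ± 0.22, adjusted p = 9.09e-05 over skin, while bone and skin overlapped. Col4a2 had 3082, 2652 and 2796 CPM in thymus, 1480.2, 1268 and 1348 CPM in bone and 709, 1229 and 954 CPM in skin. The order of the tissues was the same, with thymus 1.06 ± 0.19, adjusted p = 0.00128 above bone and 1.56 ± 0.19 above skin. Bone exceeded skin by 0.50 ± 0.19, adjusted p = 0.0472, a call lost without bone 1, bone 2, bone 3, skin 1, skin 3, thymus 2 or thymus 3 (adjusted p = 0.0546 to 0.147), in the fit with a replicate block and in the fit of the 2 tissues alone.

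Col4a1 and Col4a2 lie head to head on chromosome 8. In the deposited mm10 coordinates Col4a1 spans 11198423 to 11312826 on the minus strand and Col4a2 spans 11312829 to 11449287 on the plus strand, which leaves 2 bases between them. Their promoter windows in RefSeq GRCm38.p6, at chr8:11312777-11313076, minus strand and chr8:11312555-11312854, plus strand, share 78 bases that are identical when 1 of them is read on the opposite strand. The sequences are printed because these chains assemble together and stood in the same order over the tissues. Capitals mark the CCAAT and GGGCGG boxes on either strand.
Col4a1: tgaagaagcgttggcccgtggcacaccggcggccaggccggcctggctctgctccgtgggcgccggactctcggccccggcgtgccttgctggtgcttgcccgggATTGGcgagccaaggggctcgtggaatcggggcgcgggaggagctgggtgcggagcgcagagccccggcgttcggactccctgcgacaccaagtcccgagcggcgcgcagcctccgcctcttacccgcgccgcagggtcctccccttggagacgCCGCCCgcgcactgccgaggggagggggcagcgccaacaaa
Col4a2: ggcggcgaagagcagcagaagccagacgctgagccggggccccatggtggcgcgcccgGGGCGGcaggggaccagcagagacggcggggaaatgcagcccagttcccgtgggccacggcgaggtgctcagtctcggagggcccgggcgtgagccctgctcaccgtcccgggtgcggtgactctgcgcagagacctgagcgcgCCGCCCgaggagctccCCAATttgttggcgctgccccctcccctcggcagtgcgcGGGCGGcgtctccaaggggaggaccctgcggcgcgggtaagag

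Of the 44 genes, 35 had a promoter window in the RefSeq table. CCAAT, on either strand, was in 12 of these (34.3%, against 37.4% of all 32817 windows), TATAAA in 5 (14.3%, against 13.6%) and GGGCGG in 22 (62.9%, against 35.6%). Each collagen gene gave a single window, the nearest to its deposited start. The background counts every distinct window, so the shares are in unlike units. None of these motifs contains another, and a match is a description of the letters only.

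The other type IV genes were far lower. Col4a3 had 12.5, 14.2 and 16.1 CPM in thymus, 2.05, 1.39 and 3.1 CPM in bone and 8.31, 12.2 and 12.4 CPM in skin. Bone was lowest, 2.71 ± 0.31, adjusted p = 4.68e-05 below thymus and 2.33 ± 0.31 below skin. Col4a4 had 5.71, 9.92 and 8.85 CPM in thymus, 1.94, 7.39 and 3.43 CPM in bone and 36.5, 34.9 and 54.9 CPM in skin. For this gene skin was highest, by 2.37 ± 0.45, adjusted p = 0.00219 over thymus and 3.30 ± 0.46 over bone, and the bone minus skin difference was -3.97 without bone 2. These genes lie head to head on chromosome 1 with 71 bases between their deposited spans, so that a neighbouring pair had different tissue orders. Col4a5 had 103, 114 and 65.6 CPM in thymus, 56.7, 57.4 and 27 CPM in bone and 94.7, 105 and 128 CPM in skin. Bone was lowest, 1.01 ± 0.29, adjusted p = 0.0246 below thymus and 1.22 ± 0.29, adjusted p = 0.00663 below skin. The first call was lost without thymus 2 or thymus 3 (adjusted p = 0.0708 and 0.0808). The second was lost with library size as the scaling and in limma fits of RPKM (largest adjusted p over the alternatives 0.171). Col4a6, the partner of Col4a5 on chromosome X, had 4.32, 9.84 and 5.29 CPM in thymus, 4.47, 1.87 and 0.651 CPM in bone and 2.71, 2.29 and 1.94 CPM in skin. No comparison of it passed.

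Markers of mural cells, the smooth muscle cells and pericytes that lie on basement membranes of vessels, had their highest sum in thymus, as did the classes of type IV chains and multiplexins, but their genes did not move as one. Their summed level over 8 markers was 975 to 1329 CPM in thymus, 408 to 424 CPM in bone and 59.9 to 139 CPM in skin, with 8, 8 and 7 of them at 1 CPM or more and none at 0. Des and Notch3 made up most of the thymus sum, at means of 691 and 253 CPM against 12.6 and 58.4 CPM in bone. Thymus exceeded bone for 5 of the 8 (all genes 16.5%). It fell below bone for Rgs5 (15.3 against 72.1 CPM) and Cspg4 (23.8 against 212 CPM), both markers of pericytes. Nor did every type IV gene follow the order of the sums, since Col4a3 and Col4a5 were lowest in bone and Col4a4 was highest in skin. Both calls of Col4a5 were lost under some alternatives, as given above. Endothelial markers, 8 in all, summed to 62.8 to 99.3 CPM in thymus, 66.8 to 81.6 CPM in bone and 248 to 347 CPM in skin, with none at 0. Tek made up most of the skin sum, at a mean of 236 CPM, and with Kdr it was higher in skin than in both other tissues, whereas Pecam1 was lowest there, at 6.00 CPM against 10.8 in thymus and 13.9 in bone. The part of mural and endothelial cells in the collagen differences was not tested.

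Type VI collagen forms beaded filaments close to cells, from chains 1 and 2 and a longer chain that can be Col6a3 or, instead, Col6a4, Col6a5 or Col6a6. All 6 genes were higher in thymus than in bone (all genes 16.5%). Skin fell below thymus for 3 and below bone for 1 (all genes 19.3% and 23.7%). It exceeded thymus for 1 and bone for 4 (all genes 18.3% and 23.4%). With library size as the scaling (all genes 46.2%), or library size without the collagen reads (4609 of 15674 genes), thymus exceeded skin for 5 and Col6a3 no longer passed. Col6a1 had 9835, 8529 and 9914 CPM in thymus, 3473, 3483 and 3322 CPM in bone and 6748, 8588 and 6072 CPM in skin. Bone was lowest, 1.46 ± 0.17, adjusted p = 4.23e-05 below thymus and 1.06 ± 0.17, adjusted p = 0.000268 below skin, while thymus and skin overlapped (adjusted p = 0.0738). Col6a2 had 11281, 9540.3 and 13134 CPM in thymus, 3384, 3204 and 3183 CPM in bone and 7811, 10268 and 7262 CPM in skin. Its pattern was the same, since thymus and bone did not overlap and bone lay 1.38 ± 0.18 below skin (thymus against bone adjusted p = 1.82e-05). Col6a3 had 4833, 4103 and 4894 CPM in thymus, 2872, 3356 and 3113 CPM in bone and 7884, 8366 and 6294 CPM in skin. Here skin was highest, 0.70 ± 0.16, adjusted p = 0.00455 above thymus and 1.27 ± 0.16 above bone. The first call was lost with either library size scaling and in limma fits of RPKM (adjusted p up to 0.702). Thymus exceeded bone by 0.57 ± 0.16, adjusted p = 0.0183, which did not pass without bone 1, bone 3, thymus 2 or thymus 1-3 (adjusted p = 0.0521 to 0.0766). Nor did it pass in the fit with a replicate block (largest adjusted p over the alternatives 0.0986).

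The alternative chains included Col6a4 and Col6a5, the collagens with the largest and the third largest log2 excess of thymus over bone. Col6a4 (chromosome 9, 105990318 to 106096691 in mm10) had 661, 509 and 557 CPM in thymus, 2.91, 1.17 and 2.13 CPM in bone and 1.82, 1.07 and 2.21 CPM in skin. The thymus libraries stood far above all others, by 8.12 ± 0.41, adjusted p = 4.17e-07 over bone and 8.39 ± 0.42, adjusted p = 2.6e-07 over skin, and bone and skin overlapped. Col6a5 had 1484, 1235 and 1188 CPM in thymus, 32, 39.8 and 14.5 CPM in bone and 9.12, 12.1 and 9.58 CPM in skin. Thymus was highest, by 5.50 ± 0.36, adjusted p = 1.84e-06 over bone and 6.99 ± 0.39, adjusted p = 3.75e-07 over skin, and bone exceeded skin by 1.49 ± 0.31, adjusted p = 0.00236. Col6a6 had 1674, 1393 and 1499 CPM in thymus, 129, 169 and 53.3 CPM in bone and 786, 736 and 404 CPM in skin. The tissues were separate, with thymus 3.70 ± 0.42, adjusted p = 0.000111 above bone and 1.25 ± 0.38, adjusted p = 0.0278 above skin, and skin 2.45 ± 0.40 above bone. The call of thymus against skin was lost without skin 2, skin 3, thymus 2, thymus 3 or thymus 1-3 (adjusted p = 0.0526 to 0.0825). Per length, these chains reached 198 RPKM for Col6a6, 136 RPKM for Col6a5 and 74.5 RPKM for Col6a4 in thymus, where Col6a3 had 414 RPKM. The 3 genes lie in a row on the minus strand of chromosome 9, Col6a6 first by coordinate, with 27984 bases between Col6a6 and Col6a5 and 29674 between Col6a5 and Col6a4.

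The Col6a4 promoter window (chr9:106096642-106096941, minus strand, GRCm38.p6) is printed as that of the collagen with the largest log2 excess of thymus over bone, a choice made after the values were seen. Capitals mark 1 CCAAT and 2 GGGCGG boxes on either strand.
Col6a4: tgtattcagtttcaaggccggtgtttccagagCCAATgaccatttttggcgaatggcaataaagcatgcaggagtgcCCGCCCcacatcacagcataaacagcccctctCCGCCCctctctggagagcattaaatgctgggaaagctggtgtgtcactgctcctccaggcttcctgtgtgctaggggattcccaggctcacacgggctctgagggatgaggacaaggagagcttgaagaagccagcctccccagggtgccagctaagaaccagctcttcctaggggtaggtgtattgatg

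Col15a1, Col18a1 and Col7a1, other collagens of basement membrane zones, were also highest in thymus. Col15a1 encodes a chain that links basement membranes to the fibrils around them. It had 7026, 5637 and 7857 CPM in thymus, 669, 725 and 561 CPM in bone and 699, 968 and 640.1 CPM in skin. Thymus exceeded bone by 3.39 ± 0.21, adjusted p = 6.13e-07 and skin by 3.15 ± 0.21, adjusted p = 6.5e-07, while bone and skin overlapped. Col18a1, the source of the fragment endostatin, had 479.9, 394 and 436 CPM in thymus, 238, 213 and 158 CPM in bone and 128, 169 and 179 CPM in skin. It too was highest in thymus, with smaller differences, 1.10 ± 0.18, adjusted p = 0.000643 over bone and 1.46 ± 0.18 over skin, and bone and skin overlapped. Col7a1 forms the anchoring fibrils that hold epidermis to dermis. Its levels were 111, 84.7 and 67.4 CPM in thymus, 1.69, 1.79 and 2.08 CPM in bone and 3.67, 4.89 and 4.8 CPM in skin. Thymus exceeded bone by 5.57 ± 0.24, adjusted p = 4.05e-08 and skin by 4.30 ± 0.22, adjusted p = 1.01e-07. Skin lay 1.26 ± 0.20, adjusted p = 0.000365 above bone, and this call was lost in limma fits of RPKM (adjusted p up to 0.508).

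Col26a1 and Col28a1 belong to no larger class. Col26a1 had 71.9, 48.7 and 57.1 CPM in thymus, 1.59, 3.28 and 2.21 CPM in bone and 0.18, 0.0879 and 0.254 CPM in skin. The tissues were separate, with thymus 4.64 ± 0.33, adjusted p = 1.54e-06 above bone and 8.37 ± 0.41, adjusted p = 8.79e-08 above skin, and bone 3.72 ± 0.37 above skin. Col28a1, known from basement membranes of peripheral nerve, was low throughout, at 3.28, 4.63 and 4.15 CPM in thymus, 1.14, 1.36 and 0.857 CPM in bone and 1.19, 1.1 and 2.16 CPM in skin. Thymus was highest, by 1.85 ± 0.48, adjusted p = 0.0117 over bone and 1.44 ± 0.48, adjusted p = 0.0324 over skin. The first call was lost without thymus 3 (adjusted p = 0.0525), and the second without skin 1, skin 2, thymus 2, thymus 3 or thymus 1-3 (adjusted p = 0.0504 to 0.122). Both were also lost in the fit with a replicate block (largest adjusted p over the alternatives 0.108 and 0.148).

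Bone was marked by the network and fibril-associated collagens of cartilage and by some others. All 3 short-chain network genes were higher in bone than in either other tissue (all genes 16.1% against thymus and 23.7% against skin). Col10a1 (chromosome 10, 34389981 to 34397085 in mm10), the collagen of hypertrophic cartilage in the growth plate, had 0.134, 0.218 and 0.0392 CPM in thymus, 317, 854 and 552 CPM in bone and 0.0112, 0 and 0.0461 CPM in skin. Bone alone was above 1 CPM, by 12.05 ± 0.63, adjusted p = 9.43e-07 over thymus and 14.69 ± 0.75, adjusted p = 5.97e-07 over skin, the latter 16.21 without skin 3. The skin value rests on 5 reads over its libraries. Within bone, library 2 was highest and library 1 lowest. This gene lies within Nt5dc1 on the opposite strand, and since the strand setting of the counting is not given, reads of both may be mixed. Its promoter window (chr10:34389731-34390030, plus strand, GRCm38.p6) is printed as that of the collagen with the largest excess of bone over thymus, again chosen after the values were seen, with the TATAAA box in capitals.
Col10a1: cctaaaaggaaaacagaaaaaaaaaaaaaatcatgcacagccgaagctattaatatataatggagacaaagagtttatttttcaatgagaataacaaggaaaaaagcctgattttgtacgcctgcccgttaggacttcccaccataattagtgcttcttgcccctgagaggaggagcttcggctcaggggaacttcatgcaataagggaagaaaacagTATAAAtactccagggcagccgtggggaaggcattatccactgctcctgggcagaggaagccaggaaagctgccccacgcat

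Type VIII collagen forms a lattice in vessel walls and under the endothelium of the cornea. Col8a1 had 41.6, 68.4 and 43.3 CPM in thymus, 344, 426 and 305 CPM in bone and 10.5, 17.8 and 15.2 CPM in skin. Bone exceeded thymus by 2.81 ± 0.25, adjusted p = 9.38e-06 and skin by 4.63 ± 0.27, and thymus exceeded skin by 1.82 ± 0.24, adjusted p = 0.000141. Its partner Col8a2 had 16, 20 and 13.5 CPM in thymus, 95.5, 128 and 97.9 CPM in bone and 10.8, 15 and 12.6 CPM in skin. Bone was highest, by 2.70 ± 0.20, adjusted p = 1.65e-06 over thymus and 3.06 ± 0.20 over skin, and thymus and skin overlapped.

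Of the 9 FACIT genes, bone exceeded thymus for 5 (all genes 16.1%). Bone exceeded skin for 5 and fell below it for 2 (all genes 23.7% and 23.4%). Thymus exceeded skin for 1 and fell below it for 3 (all genes 19.3% and 18.3%). Type IX chains coat the fibrils of cartilage. Col9a1 had 0.00839, 0.151 and 0 CPM in thymus, 25.3, 33.9 and 16.5 CPM in bone and 0.607, 0.0586 and 0 CPM in skin. Bone exceeded thymus by 8.81 ± 1.38, adjusted p = 0.000943 and skin by 6.78 ± 1.23, adjusted p = 0.00145. These sizes rest on few reads in the low tissues, and the thymus minus bone difference was -12.09 without thymus 3, the bone minus skin difference 9.84 without skin 1 and 6.18 without skin 3. Col9a2 had 0.856, 1.19 and 0.745 CPM in thymus, 21.3, 17.1 and 10.4 CPM in bone and 1.08, 0.381 and 2.18 CPM in skin. Bone was highest, by 4.13 ± 0.57, adjusted p = 0.000213 over thymus and 3.74 ± 0.56 over skin, the latter 4.46 without skin 3. Col9a3 had 0.235, 0.234 and 0.255 CPM in thymus, 11.4, 16.3 and 8.91 CPM in bone and 1.41, 0.791 and 0.923 CPM in skin. The tissues were separate, with bone 5.66 ± 0.42 above thymus and 3.55 ± 0.38 above skin, and skin 2.10 ± 0.37, adjusted p = 0.000836 above thymus, a call lost in the limma fits of RPKM with a pseudocount of 1 (adjusted p up to 0.429).

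Col22a1, a chain of tissue junctions such as that of muscle and tendon, had 2.42, 3.06 and 1.56 CPM in thymus, 1020.3, 592 and 814 CPM in bone and 0.18, 0.176 and 0.127 CPM in skin. Bone exceeded thymus by 8.43 ± 0.33, adjusted p = 3.25e-08 and skin by 12.29 ± 0.40, adjusted p = 7.7e-09, with bone 1 the highest library. Thymus lay 3.87 ± 0.34, adjusted p = 5.9e-06 above skin at low levels, a call lost in the limma fits of RPKM with a pseudocount of 1 (adjusted p up to 0.0948). Col12a1, found along type I fibrils of tendon and periosteum, had 96.8, 180.5 and 149 CPM in thymus, 613, 1439 and 919 CPM in bone and 146, 164 and 158 CPM in skin. Bone was highest, by 2.80 ± 0.31, adjusted p = 6.5e-05 over thymus and 2.67 ± 0.31 over skin, with library 2 the highest. Col14a1, its relative in dermis and tendon, was instead highest in skin, with 645, 1097 and 1029.8 CPM in thymus, 969, 914 and 836 CPM in bone and 4398, 4154 and 3105 CPM in skin. Skin exceeded thymus by 2.07 ± 0.22, adjusted p = 1.8e-05 and bone by 2.10 ± 0.22, while thymus and bone overlapped. Col16a1, which sits on fibrils and microfibrils, had 352, 320.2 and 285 CPM in thymus, 324, 464 and 347 CPM in bone and 739, 717 and 606 CPM in skin. Skin exceeded thymus by 1.11 ± 0.17, adjusted p = 0.000294 and bone by 0.86 ± 0.17, adjusted p = 0.00125, and the latter call was lost with library size as the scaling and in limma fits of RPKM (adjusted p up to 0.441).

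**Figure D4:**
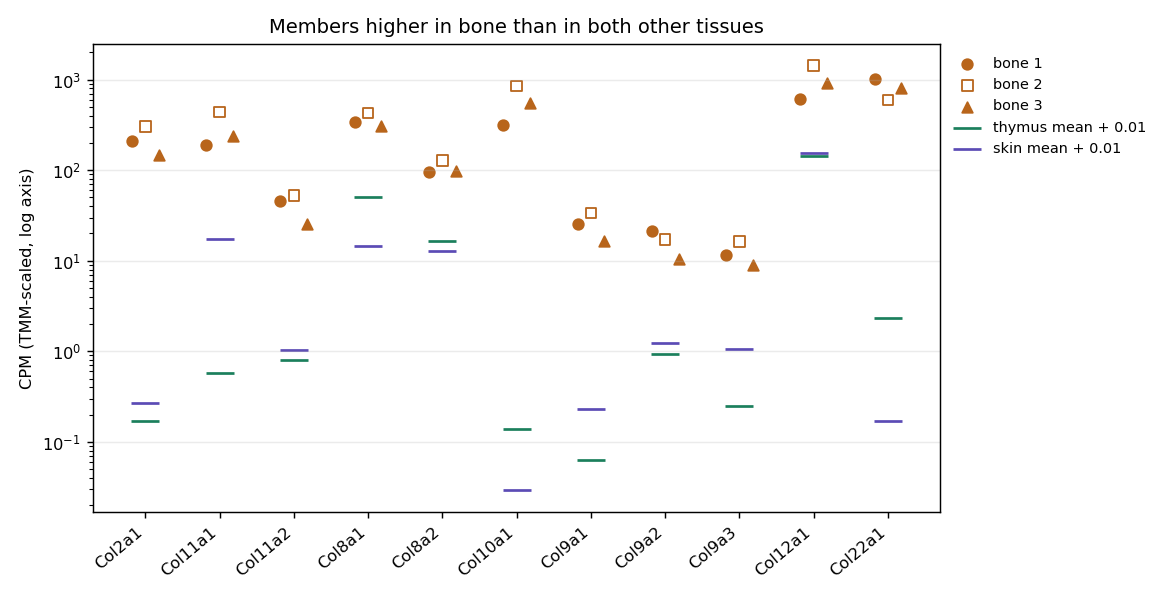
CPM on a log axis (y) of the 11 collagen genes highest in bone (x), with a symbol for each bone library and lines for the means of thymus and skin, plus 0.01. Every bone library lies above both lines, and bone 2 is the highest bone library for 9 of the 11 genes.

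More collagen genes varied widely between libraries in bone than in the other tissues, although the median spread did not set bone apart. Among collagen genes at a mean of 10 CPM or more, the highest library exceeded the lowest by more than 2-fold for 10 of 31 in bone, 0 of 26 in thymus and 0 of 25 in skin. The same count over all genes was not made, so it is open whether this is particular to collagen genes. The median ratio of the highest to the lowest library was 1.40 in bone, 1.41 in skin and 1.27 in thymus. The 10 were Col2a1, Col4a5, Col6a5, Col6a6, Col9a1, Col9a2, Col10a1, Col11a1, Col11a2 and Col12a1, with the widest ratio, 3.16, for Col6a6. Summed markers of skeletal cells were higher in bone than in both other tissues, while within bone single markers peaked in different libraries. Summed over 12 markers, chondrocyte genes came to 1565 to 2000 CPM in bone, 22.0 to 38.2 CPM in thymus, where Matn1 and Matn3 were at 0, and 13.3 to 22.0 CPM in skin, where Matn1 and Ucma were at 0. At 1 CPM or more were 11 of them in bone and 4 in each other tissue. The 9 osteoblast markers came to 544 to 1209 CPM in bone, 24.1 to 30.6 CPM in thymus, with Bglap and Bglap2 at 0, and 7.58 to 12.2 CPM in skin, with Ibsp and Dmp1 at 0. Of these, Ibsp, Spp1, Alpl, Phex, Sp7 and Runx2 were highest in bone 2, Bglap and Bglap2 in bone 3 and Dmp1 in bone 1. Ibsp had 63.2, 284 and 95.0 CPM in bone 1, 2 and 3. Among the chondrocyte markers, Acan, Matn1, Matn3, Hapln1 and Clec3a were highest in bone 2. Comp, Epyc, Sox9, Chad and Cytl1 peaked in bone 3, and Lect1 and Ucma in bone 1. The 5 tendon markers summed to 653 to 1096 CPM in bone, 13.0 to 14.9 CPM in thymus and 40.5 to 63.9 CPM in skin, with none at 0. Myeloid markers, 8 in all, came to 2513 to 3505 CPM in bone, 13.2 to 43.9 CPM in thymus and 36.5 to 83.7 CPM in skin, where Elane was at 0. The part of these cell types in the collagen differences was not tested.

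Transmembrane collagens were low in all tissues. Col13a1, an adhesion protein of the neuromuscular junction, had 3.6, 2.64 and 2.05 CPM in thymus, 2.63, 6.78 and 2.14 CPM in bone and 0.315, 0.0879 and 0.496 CPM in skin. Skin was lowest, 3.19 ± 0.70, adjusted p = 0.00357 below thymus and 3.67 ± 0.71, adjusted p = 0.00129 below bone, the latter 2.98 without bone 2. No comparison passed for Col17a1, the hemidesmosome collagen of keratinocytes, with means of 0.85 CPM in thymus, 0.721 CPM in bone and 2.58 CPM in skin. Keratinocyte markers, 10 in all, summed to 46.0 to 47.8 CPM in thymus, 164 to 230 CPM in bone, of which Itga6 made up most, and 67.9 to 192 CPM in skin, with Dsg3 at 0 in bone. Hair follicle markers, 6 in all, came to 154 to 511 CPM in skin, where none was at 0, 1.79 to 4.18 CPM in thymus, with Shh at 0, and 0.777 to 1.54 CPM in bone, with Krt27 and Shh at 0. The part of these cells in the skin values was not tested. Col23a1 and Col25a1 passed no comparison either, with highest tissue means of 8.89 and 0.384 CPM.

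The remaining FACIT genes, Col19a1 and Col20a1, passed no comparison, and their highest tissue means were 0.208 and 3.07 CPM. For Col19a1 skin had 2 reads over its 3 libraries against 64 in bone and 30 in thymus, ratios of 25.0 (95% interval 6.64 to 211) and 10.7 (2.72 to 92.7) that cover counting error only. In all, 8 genes stayed under a mean of 10 CPM in every tissue, namely Col4a6, Col13a1, Col17a1, Col19a1, Col20a1, Col23a1, Col25a1 and Col28a1.

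Ratios of paired chains within a library are free of the scaling between libraries. They were computed from RPKM for 14 pairs, of which 13 could be tested by the exact permutation test over the 3 tissues, with p adjusted over the 13. Col9a2 to Col9a1 could not be tested because a library had 0 reads. The ratio of Col3a1 to Col1a1 was 2.91, 3.07 and 2.37 for thymus, 1.98, 1.59 and 1.74 for bone and 1.29, 1.25 and 1.36 for skin. It was highest in thymus and lowest in skin, without overlap (adjusted p = 0.0155 by the exact permutation test). For Col5a1 to Col1a1 the values were 0.236, 0.225 and 0.229 for thymus, 0.137, 0.127 and 0.135 for bone and 0.0861, 0.0812 and 0.0643 for skin. The order was the same, again without overlap (adjusted p = 0.0155).

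Within type VI, Col6a3 to Col6a1 was 0.19, 0.186 and 0.185 for thymus, 0.319, 0.372 and 0.363 for bone and 0.452, 0.375 and 0.395 for skin. Thymus lay below both other tissues, which overlapped (adjusted p = 0.0155, exact). Col15a1 and Col18a1 are multiplexins of different types, XV and XVIII, rather than chains of a shared type. Their ratio was 16.2, 15.9 and 19.9 for thymus, 3.11, 3.78 and 3.93 for bone and 5.91, 6.18 and 3.87 for skin. Thymus lay apart on the high side (adjusted p = 0.0232, exact). Col11a1 to Col11a2 was 0.436, 0.523 and 0.695 for thymus, 3.3, 6.58 and 7.39 for bone and 6.22, 10.9 and 39.7 for skin. Thymus was lowest, and bone and skin overlapped (adjusted p = 0.0279, exact). These 5 pairs passed whichever library was left out. The thymus and skin values of the type XI pair rest on as few as 39 reads for a chain in a library.

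Other ratios passed with less margin. Col8a1 to Col8a2 was 2.21, 2.9 and 2.65 for thymus, 3.06, 2.84 and 2.64 for bone and 0.832, 1.01 and 1.02 for skin. Skin lay below both other tissues (adjusted p = 0.0332, exact), and the call was lost without bone 1 (adjusted p = 0.0511). Col5a1 to Col5a2 was 0.821, 0.815 and 1.05 for thymus, 0.808, 0.857 and 0.759 for bone and 1.99, 2.08 and 1.47 for skin. Skin lay above both others (adjusted p = 0.031, exact), and the call was lost without bone 3 (adjusted p = 0.0516). Col1a1 to Col1a2, which assemble in a fixed proportion in type I collagen, had ratios of 0.814, 0.821 and 1.19 for thymus, 0.955, 1.03 and 1.03 for bone and 1.33, 1.39 and 1.41 for skin. Thymus 1-3 lay above the bone libraries and the other thymus libraries lay below them. The exact test passed (adjusted p = 0.0406), but not without any 1 of bone 1, bone 2, bone 3, skin 1, skin 2, skin 3, thymus 2 or thymus 3 (adjusted p = 0.0619 to 0.111). Col6a1 to Col6a2 was 0.808, 0.83 and 0.692 for thymus, 0.955, 1.01 and 0.97 for bone and 0.791, 0.769 and 0.775 for skin. Bone was highest (adjusted p = 0.0464, exact), a call lost without bone 1, bone 2, bone 3, skin 1 or skin 2 (adjusted p = 0.0511 to 0.058). The ratio of Col4a3 to Col4a4 was 1.86, 1.27 and 1.67 for thymus, 0.831, 0.176 and 0.869 for bone and 0.197, 0.315 and 0.195 for skin. It was highest in thymus (adjusted p = 0.0464, exact), and the call was lost on leaving out any 1 library other than bone 2 (adjusted p = 0.0511 to 0.118).

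The remaining 3 pairs did not pass. Col4a1 to Col4a2 was 1.43, 1.43 and 1.28 for thymus, 1.11, 1.16 and 1.03 for bone and 1.09, 1.21 and 1.37 for skin (adjusted p = 0.075, exact), and it passed without skin 1 or skin 3 (adjusted p = 0.0464 and 0.0413). Skin overlapped with both other tissues for this pair. Col9a3 to Col9a2 was 0.263, 0.193 and 0.45 for thymus, 0.612, 1.04 and 0.88 for bone and 1.38, 2.28 and 0.493 for skin (adjusted p = 0.0549, exact), and it passed without skin 3 (adjusted p = 0.0186). Col4a5 to Col4a6 was 24.1, 11.6 and 11.9 for thymus, 12.4, 31 and 41.2 for bone and 35.2, 47.5 and 65.3 for skin (adjusted p = 0.058, exact).

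**Figure D5:**
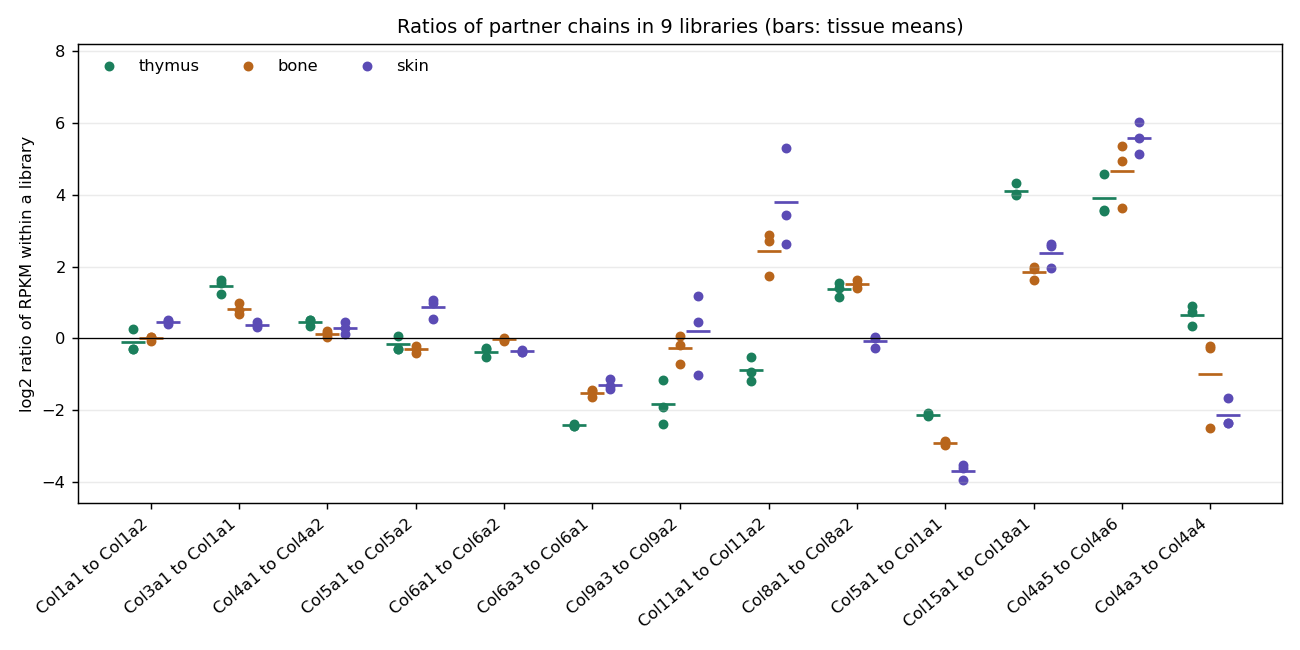
Log2 ratios of RPKM within a library (y) for the 13 tested pairs of chains (x), with a point for each library and a bar for each tissue mean. Thymus stands apart from both other tissues for Col3a1 to Col1a1, Col6a3 to Col6a1, Col11a1 to Col11a2, Col5a1 to Col1a1 and Col15a1 to Col18a1. These pairs passed whichever library was left out. Thymus also lies apart for Col4a3 to Col4a4, which passed with less margin, and for Col9a3 to Col9a2, which did not pass.

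Genes that make and cross-link collagen were mostly highest in skin. Of 30 such genes, skin exceeded thymus for 23 and bone for 25 (all genes 18.3% and 23.4%). Skin fell below thymus for 4 and below bone for 5 (all genes 19.3% and 23.7%). Thymus exceeded bone for 11 and fell below it for 6 (all genes 16.5% and 16.1%). With library size as the scaling, skin exceeded thymus for 13 and bone for 20 (all genes 7.92% and 8.91%). It then fell below them for 7 and 5 (all genes 46.2% and 47.8%). The sign of Leprel2, Mia3 and Plod3 turned for thymus against skin and that of Adamts14 for bone against skin. Serpinh1, the collagen chaperone HSP47, had 2648, 2676 and 2699 CPM in thymus, 963, 1137 and 939.9 CPM in bone and 7556, 7645 and 4947 CPM in skin. Skin exceeded thymus by 1.33 ± 0.18, adjusted p = 0.000152, and thymus exceeded bone by 1.40 ± 0.18, adjusted p = 0.000125. P4ha2, a subunit of prolyl 4-hydroxylase, had 77, 77.4 and 74.4 CPM in thymus, 64.1, 78.5 and 72.7 CPM in bone and 481, 491 and 298 CPM in skin. Skin lay 2.47 ± 0.19, adjusted p = 1.52e-06 above thymus and 2.56 ± 0.19 above bone. Pcolce2, an enhancer of procollagen cleavage, had 43.7, 83.3 and 76.2 CPM in thymus, 198, 163 and 141 CPM in bone and 439, 562 and 506 CPM in skin, and the tissues did not overlap. Leprel1, a prolyl 3-hydroxylase, went the other way, at 13.7, 13.1 and 11.5 CPM in thymus, 7.78, 12.9 and 10 CPM in bone and 0.652, 1.07 and 1.07 CPM in skin. Thymus exceeded skin by 3.78 ± 0.30, adjusted p = 2.3e-06 and bone exceeded it by 3.46 ± 0.30.

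Collagen receptors differed between tissues in both directions with TMM scaling. Of 10 tested, thymus exceeded bone for 2 and fell below it for 4 (all genes 16.5% and 16.1%). It exceeded skin for 3 and fell below it for 2 (all genes 19.3% and 18.3%). Bone exceeded skin for 4 and fell below it for 3 (all genes 23.7% and 23.4%). With library size as the scaling most of those that passed were lower in skin. Thymus then exceeded skin for 6 and fell below it for 1 (all genes 46.2% and 7.92%). Bone exceeded skin for 7 (all genes 47.8%), and the sign of Ddr1 and Mrc2 turned. Itga1, the integrin chain that binds type IV collagen among others, had 266, 222 and 226 CPM in thymus, 32.5, 29.9 and 25.6 CPM in bone and 6.01, 5.98 and 6.31 CPM in skin. Thymus was highest, by 3.02 ± 0.14, adjusted p = 6.48e-08 over bone and 5.29 ± 0.15, adjusted p = 4.79e-09 over skin. Itga10, the integrin chain of chondrocytes, had 3.94, 1.68 and 2.53 CPM in thymus, 41.2, 48.7 and 39.2 CPM in bone and 2.24, 1.54 and 1.43 CPM in skin. Bone was highest, by 3.98 ± 0.31, adjusted p = 2.95e-06 over thymus and 4.63 ± 0.33 over skin. Itga11, a receptor of fibrillar collagen, had 48.6, 61.7 and 63.9 CPM in thymus, 125, 149 and 99.7 CPM in bone and 94.7, 149 and 170.1 CPM in skin. Thymus was lowest, 1.10 ± 0.22, adjusted p = 0.0025 below bone and 1.25 ± 0.22 below skin. Mrc2, an uptake receptor for collagen, had 473, 437 and 392 CPM in thymus, 562, 470.1 and 464 CPM in bone and 773, 856 and 706 CPM in skin, and skin exceeded thymus by 0.84 ± 0.14, adjusted p = 0.000722.

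Of 12 transcription factors that act on collagen genes, bone exceeded thymus for 8 and fell below it for 1 (all genes 16.1% and 16.5%). Bone exceeded skin for 7 and fell below it for 2 (all genes 23.7% and 23.4%). Thymus exceeded skin for 4 and fell below it for 5 (all genes 19.3% and 18.3%). The sign of Nfyc turned against skin with library size as the scaling. Sox6, which acts with Sox9 on cartilage collagens, had 0.973, 2 and 2.24 CPM in thymus, 18.1, 18.3 and 19.7 CPM in bone and 0.45, 0.498 and 0.577 CPM in skin. Bone was highest, by 3.43 ± 0.33, adjusted p = 1.21e-05 over thymus and 5.20 ± 0.36, adjusted p = 8.87e-07 over skin. Runx2, which acts on Col10a1 and osteoblast genes, had 15.2, 13.4 and 19.7 CPM in thymus, 37.8, 66 and 35.9 CPM in bone and 2.15, 3.08 and 3.53 CPM in skin. The tissues did not overlap, and bone exceeded thymus by 1.53 ± 0.27, adjusted p = 0.00103 and skin by 4.00 ± 0.30. Sp7, the osteoblast factor osterix, had 0, 0 and 0.0098 CPM in thymus, 7.04, 11.9 and 6.63 CPM in bone and 1.48, 0.777 and 1.78 CPM in skin, with 1 read in thymus in all, and bone exceeded skin by 2.66 ± 0.51, adjusted p = 0.00116. Mef2c, known to act in hypertrophic chondrocytes, had 5.43, 9.75 and 10.2 CPM in thymus, 43.6, 42.3 and 50.8 CPM in bone and 35.2, 32 and 35.8 CPM in skin. It was lowest in thymus, 2.43 ± 0.22, adjusted p = 8.07e-06 below bone and 2.02 ± 0.22 below skin.

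Of the 44 genes, 4 overlap another gene of the deposited tables, namely Col10a1 (Nt5dc1), Col7a1 (Mir711), Col17a1 (Snora19) and Col27a1 (Mir455), and 18 overlap a gene on the opposite strand in the GENCODE M21 annotation. Without a stated strand setting, reads of such partners cannot be told apart.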

How the data were processed

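Lineage-negative, SCA1-positive cells of thymus, bone and skin gave 9 RNA-seq libraries, 3 per tissue, grouped by the tissue named in the labels. Counts were deposited as whole reads for each gene symbol, and 5 summary lines in the layout of HTSeq, 5.05 to 14.8% of all lines' reads, stayed out of every total. The deposited RPKM tables give an RPKM made by the authors, mm10 coordinates and a whole-number signal per gene. That signal was used only to compute the signal per read of each collagen gene. CASAVA 1.8.2, HTSeq 0.5.4 and mm10 are named in the submitters' processing notes without their roles. Not given in the sources used here are the aligner, the annotation, the strand setting and the digestion of skin. The labels give at least 25000 sorted cells per sample and, for bone, an added crushing step and red cell lysis.

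Counts were fitted over all 9 libraries with edgeR 4.0.16 in R 4.3.3 (TMM factors, filterByExpr, robust quasi-likelihood test, a mean per tissue) with Benjamini-Hochberg adjustment over 15635 genes, and the code was tested on simulated data. The SE of a log2 difference is its size over the root of the F statistic and is approximate. Shares and ratios of paired chains were tested by an exact permutation test over 1680 arrangements, coded with numpy 2.4.6. The alternatives were other scalings and filters, DESeq2 1.42.0, limma 3.58.1 on log2 RPKM with a pseudocount of 1 or 0.1, a replicate block, fits of 2 tissues, and leaving out each library. Ratios from reads per merged exon length of GENCODE M21 were added after the data were seen. Replicates differed by more than sampling noise (chi-square per degree of freedom 87.2 to 279.9). Counting intervals leave out all but counting error.

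The collagen genes, classes and gene lists were chosen with earlier results of these data known. Values per library are given for genes apart in 1 tissue, at a mean of 200 CPM in any tissue or in a tested pair, and of each pathway list the 4 genes with the smallest p are named. Promoters come from RefSeq, GRCm38.p6, with 35 of 44 genes matched by symbol. Those of Col4a1 and Col4a2 followed the rule, and the others were added after values were seen. Protein sequences are not printed here.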

Additional observations from a re-analysis of the deposited data

How the results depend on the processing

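Over 21 alternatives, none of the 89 called differences between tissues changed sign, 75 kept their call wherever tested and 14 lost it in at least 1. The 4 calls of Col13a1 and Col28a1 had no value in the 2 filtered limma fits, so 73 kept their call in all 21. Those 14 were bone against skin for Col4a2, Col4a5, Col5a2, Col7a1 and Col16a1, thymus against bone for Col4a5, Col5a3, Col6a3 and Col28a1, and thymus against skin for Col6a3, Col6a6, Col9a3, Col22a1 and Col28a1. Genes lowest in thymus numbered 1 in the 3 limma fits against 2. Genes lowest in bone numbered 2 with library size, 3 with library size without collagen reads, and 1, 2 and 1 in the limma fits with a pseudocount of 1, of 0.1 and of 1 without a filter, against 6. Genes lowest in skin numbered 12 with library size and 4 in both limma fits with a pseudocount of 1, against 7. The cause was not tested. Leaving out 1 library gave thymus above bone for 13 to 16 genes and below it for 13 to 14, thymus above skin for 13 to 17 and below it for 12, bone above skin for 16 to 17 and below it for 16, and 7 to 11 genes highest in thymus. The log2 span between the highest and the lowest tissue mean ranged from 0.48 to 0.75 for Col1a1 to Col1a2, 0.28 to 0.38 for Col4a1 to Col4a2, 2.67 to 3.01 for Col4a3 to Col4a4, 1.08 to 1.34 for Col5a1 to Col5a2, 0.31 to 0.39 for Col6a1 to Col6a2, 1.49 to 1.63 for Col8a1 to Col8a2 and 1.54 to 2.64 for Col9a3 to Col9a2, and calls changed as given with each. With a replicate block, 13 genes were above and 13 below for thymus against bone, 15 and 12 for thymus against skin, and 16 and 16 for bone against skin. The deviations of same-numbered libraries correlated at -0.033 to 0.076 over 7 pairs, so the numbers were taken as names only. Ratios per length of the reference protein were not run. Under 10 reads in at least 1 library limit Col2a1, Col9a1, Col10a1, Col13a1, Col17a1, Col19a1, Col25a1 and Col26a1.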
